A study of Mus musculus with 6 samples.

Results

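Flvcr2 and 9 other genes that move heme and iron through cells were examined in the ventricles of miR-499 transgenic mice. The 10 genes were taken by name, and each was represented by the probe set that carries a single gene symbol and has the highest mean log2 value over all 6 mice. All 10 were found among the 19938 genes named in this way, and only Flvcr1 had 2 such probe sets, with means of 8.18 for the one taken and 8.02 for the other. Flvcr2 was selected on its log2 values in these same arrays, where it was known to be lower in the transgenic hearts, so its difference is given as a description and not as a test. The other 9 genes were chosen for their place in heme and iron handling, with results of these arrays known.

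The arrays measured RNA from the cardiac ventricles of 3 TG-17 mice and 3 wild-type (WT) littermates, all at postnatal day 17, with 1 array per mouse. TG-17 is a line made from FVB/NCrl embryos, in which the alpha-myosin heavy chain (Myh6) promoter drives a fragment that holds the mouse miR-499 precursor, a promoter of cardiomyocytes and not of the other cells of the ventricle. All 3 TG-17 mice belong to 1 line, and no sex is given for any mouse. WT mice carried no transgene. Values are log2 signals normalized by RMA, a method that corrects background, equalizes the arrays and combines the probes of a probe set, so a difference of 1 is a doubling and no count or depth lies behind them.

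Heme is an iron-bearing ring made in mitochondria, where 5-aminolevulinate synthase (Alas1 in most tissues, Alas2 in red cell precursors) sets the pace of synthesis. Iron enters cells with transferrin through the transferrin receptor (Tfrc), crosses the endosome through Slc11a2, and leaves through ferroportin (Slc40a1), while heme oxygenases (Hmox1, inducible, and Hmox2, constitutive) open the ring and release the iron. The heart uses heme for myoglobin and the respiratory chain, and iron regulatory proteins such as Ireb2 adjust Tfrc and ferritin to the iron supply. Flvcr1 and Flvcr2 are related membrane transporters of the major facilitator superfamily, for which transport of heme and of choline has been described, and loss of human FLVCR2 disturbs the vessels of the developing brain.

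The transgene product and the regions upstream of the Flvcr pair are shown for orientation. The mature mouse miR-499-5p lies at chr2:155622893-155622913 (GRCm38.p6, plus strand), and its seed, bases 2 to 8, is in capitals.
mmu-miR-499-5p: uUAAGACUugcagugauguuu
The 250 bases before the annotated start of Flvcr2 (chr12:85746289-85746538, plus strand) and of Flvcr1 (chr1:191026191-191026440, minus strand) come from RefSeq with the same build. Capitals mark matches to motifs linked to hypoxia, heme and oxidative stress, or red cell genes.
Flvcr2: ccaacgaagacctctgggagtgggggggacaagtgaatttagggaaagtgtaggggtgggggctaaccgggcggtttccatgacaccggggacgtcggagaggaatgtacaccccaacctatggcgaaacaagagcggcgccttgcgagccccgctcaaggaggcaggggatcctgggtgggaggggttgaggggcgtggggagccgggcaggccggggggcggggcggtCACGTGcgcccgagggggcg
Flvcr1: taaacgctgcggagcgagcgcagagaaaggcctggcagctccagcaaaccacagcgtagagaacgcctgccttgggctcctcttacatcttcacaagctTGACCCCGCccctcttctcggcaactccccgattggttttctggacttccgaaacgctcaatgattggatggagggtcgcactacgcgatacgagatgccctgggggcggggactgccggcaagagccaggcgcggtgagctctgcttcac

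Each motif was searched on both strands. ACGTG, the core of a hypoxia response element, also lies within the E-box CACGTG and was held by 16.6% of 32851 windows of this length. The core of the antioxidant response element was searched as TGACNNNGC and was held by 10.2%. A GATA site was searched as AGATAA and was held by 9.99%. Windows were found for 7 of the 10 genes. The Flvcr2 window held ACGTG on both strands within 1 CACGTG, and the Flvcr1 window held TGACNNNGC. Beyond the pair, ACGTG was present in a window of Tfrc and AGATAA in the window of Alas2. Both Flvcr windows were rich in CpG, with 20 CpG and 68.0% G and C for Flvcr2 and 19 CpG and 60.4% for Flvcr1, against a median of 6 CpG over all windows. These matches are descriptions of the sequence and were not tied to any measurement of binding.

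The labels were checked with the transgene product itself. The miR-499 probe set had log2 values of 9.31, 9.33 and 8.87 in TG-17 and 5.48, 5.34 and 5.68 in WT ventricles, a 12.7-fold higher mean. Array medians lay at 6.89 to 6.91 in TG-17 and at 6.93 to 6.95 in WT on the log2 scale. Cardiomyocyte markers were present in every mouse, and none of 10 passed a nominal limma p of 0.05, with Myh6, the alpha-myosin heavy chain, at 13.97 ± 0.029 in TG-17 and 13.93 ± 0.031 in WT (SD, n = 3 each). The groups did not overlap for 6 of these 10 markers, against 25.8% of all named genes. Of these markers 5 were higher and 5 lower on average in TG-17, with log2 differences from -0.11 (Tnnt2) to 0.12 (Myl2). A probe set was taken as called at a log odds of differential expression (B) above 0 in limma, and its p values were adjusted by the method of Benjamini and Hochberg across 35556 probe sets. A log2 difference, or log2 fold change, is TG-17 minus WT, SE is their standard error from limma, and a nominal p is one without that adjustment. All 10 genes entered this fit, since no filter on low values was used.

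Flvcr2 was lower in every transgenic mouse. Its log2 values were 6.52, 6.52 and 6.49 in TG-17 and 7.10, 7.17 and 7.06 in WT ventricles. The groups did not overlap, and the 3 TG-17 mice lay within a far narrower band than the distance to the lowest WT mouse. The mean was 6.51 ± 0.016 in TG-17 and 7.11 ± 0.054 in WT (SD, n = 3 each), a log2 difference of -0.60 (SE 0.052), or 1.52-fold lower. Among the named genes, 12 had a lower log2 difference. The mean log2 value of Flvcr2 over the 6 mice was 6.81, higher than in 42.5% of named genes and under their median of 7.24. In whole ventricle, fewer cells that express a gene and less of its RNA per cell cannot be told apart.

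Flvcr1, the related transporter best known as a heme exporter, had log2 values of 8.02, 8.16 and 8.22 in TG-17 and 8.20, 8.39 and 8.12 in WT ventricles. The highest TG-17 mouse lay above 2 of the 3 WT mice, so the groups overlapped. Its log2 difference was -0.10 (SE 0.092, 95% interval -0.32 to 0.12, limma adjusted p = 0.625). That value was -0.043 without TG-17 replicate 1, -0.023 without WT replicate 2 and -0.16 without WT replicate 3. Its second probe set had a log2 difference of -0.11 (SE 0.067, limma adjusted p = 0.464). Whether the difference in Flvcr2 is larger than that in Flvcr1 was not tested, because Flvcr2 was chosen for it.

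**Figure D1:**
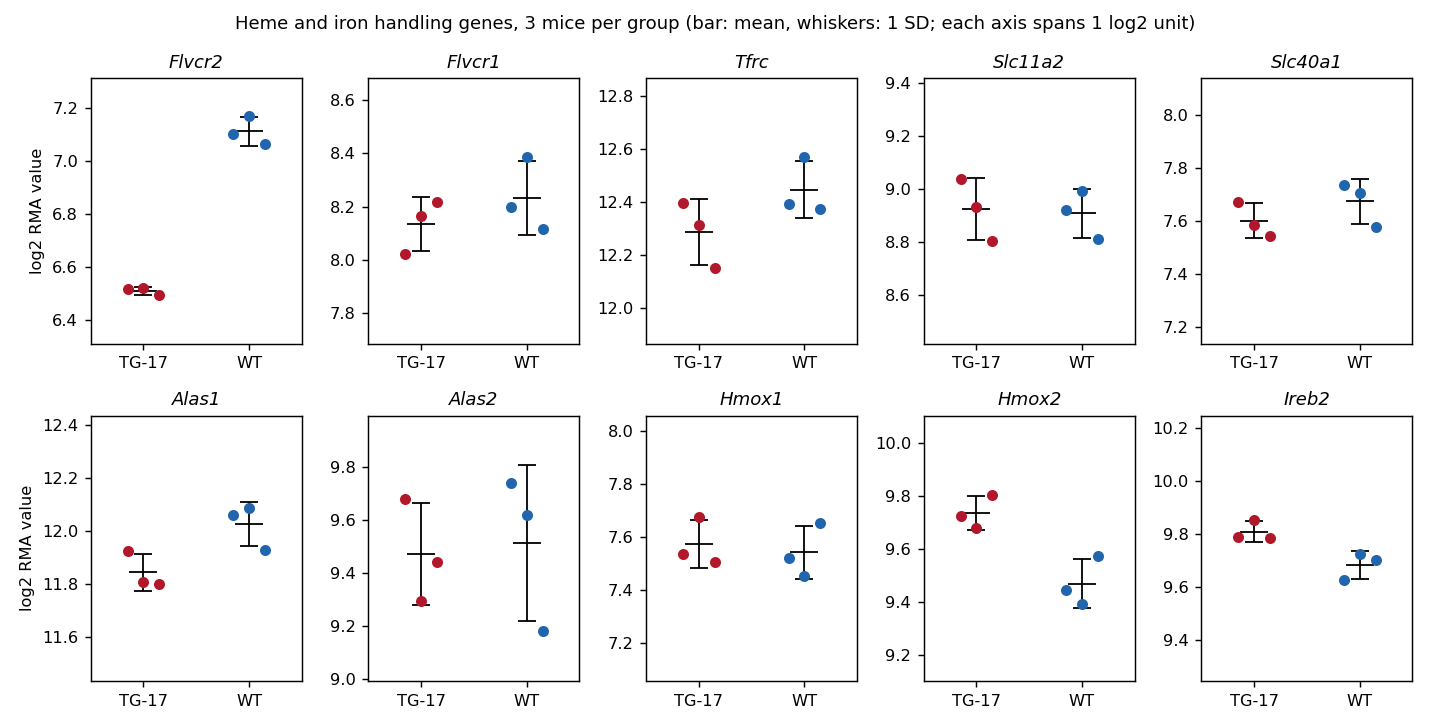
Log2 RMA values of the 10 genes in the ventricles of 3 TG-17 (red) and 3 WT (blue) mice, with points for single mice, the mean as a bar and 1 SD as whiskers on axes that each span 1 log2 unit. For Flvcr2, TG-17 spans 6.49 to 6.52 and WT 7.06 to 7.17, and the points of Alas2 are the most scattered.

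Of the 10 genes, 1 was called at B above 0, which was Flvcr2 itself, the gene chosen on these same values. Of all probe sets 0.366% were called, 0.211% as lower and 0.155% as higher in TG-17, and of the named genes 0.341%. None of the 9 other genes was called by limma, and none of the 10 had an adjusted p under 0.05, a limit that 0.00562% of probe sets passed. Flvcr2 alone fell under that limit in 2 alternatives, with annotated probe sets only and with an intensity trend. At a nominal limma p under 0.05, Alas1 was lower and Hmox2 higher among the 9, while 15.4% of all named genes passed that limit, 8.76% as lower and 6.65% as higher. The groups did not overlap for Flvcr2 and for 3 of the other 9 (Hmox2, Alas1 and Ireb2), against 25.8% of all named genes. The median log2 difference of the 9 was -0.042, and that of all named genes was -0.018.

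Neither of the genes that bring iron into the cell was called. Tfrc, the receptor that takes up transferrin-bound iron, had log2 values of 12.40, 12.32 and 12.15 in TG-17 and 12.40, 12.57 and 12.38 in WT ventricles. TG-17 replicate 3 was the lowest of all 6 mice, but the other two TG-17 values reached or approached those of WT. The log2 difference of Tfrc was -0.16 (SE 0.089, 95% interval -0.38 to 0.056, limma adjusted p = 0.434), and it was -0.091 without TG-17 replicate 3 and -0.098 without WT replicate 2. Slc11a2, the divalent metal transporter of the endosome, had values of 9.04, 8.93 and 8.80 in TG-17 and 8.92, 8.99 and 8.81 in WT, with the lowest and the highest mouse both in TG-17. Its log2 difference was 0.018 (SE 0.082, 95% interval -0.18 to 0.22, limma adjusted p = 0.932). Its sign turned after a second quantile normalization and without TG-17 replicate 1 or WT replicate 3.

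Slc40a1, which encodes ferroportin, the iron exporter, had log2 values of 7.67, 7.59 and 7.54 in TG-17 and 7.74, 7.71 and 7.58 in WT ventricles. The groups overlapped, and the log2 difference was -0.073 (SE 0.067, 95% interval -0.23 to 0.089, limma adjusted p = 0.623). It was -0.045 without TG-17 replicate 3, -0.042 without WT replicate 1 and -0.12 without WT replicate 3.

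The 2 synthases of the first step of heme synthesis differed in how far the mice scattered. Alas1, the form found in most tissues, had log2 values of 11.92, 11.81 and 11.80 in TG-17 and 12.06, 12.09 and 11.93 in WT ventricles. The lowest WT mouse lay just above the highest TG-17 mouse. The log2 difference was -0.18 (SE 0.067, 95% interval -0.35 to -0.018), and the gene was not called (limma adjusted p = 0.297). Alas2, the form of red cell precursors, had values of 9.68, 9.30 and 9.44 in TG-17 and 9.74, 9.62 and 9.18 in WT. Its SD within a group was 0.25, higher than in 98.4% of named genes, and its groups overlapped over nearly their whole range. Its log2 difference was -0.042 (SE 0.17, 95% interval -0.45 to 0.37, limma adjusted p = 0.922), a wide interval that holds differences in both directions. Its sign turned after centring each array on its median and when TG-17 replicate 2, WT replicate 1 or WT replicate 2 was left out. The mean log2 value of 7 erythroid markers was 6.34 to 6.40 in TG-17 and 6.43 to 6.51 in WT ventricles, without overlap, and its part in the values of Alas2 was not tested.

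**Figure D2:**
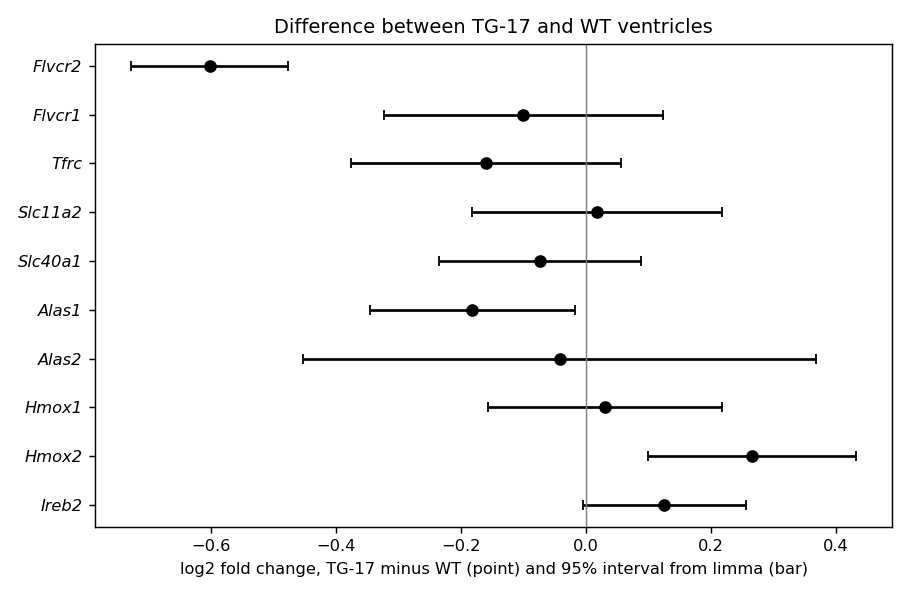
Log2 fold change (TG-17 minus WT) of the 10 genes, with the point as the estimate and the bar as the 95% interval from limma, 3 mice per group. The interval of Flvcr2 runs from -0.73 to -0.48 and that of Hmox2 from 0.099 to 0.43, while those of Flvcr1, Tfrc, Slc11a2, Slc40a1, Alas2, Hmox1 and Ireb2 include 0.

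Of the heme oxygenases, Hmox1 is induced by heme and oxidative stress and Hmox2 is expressed without induction. Hmox2 had log2 values of 9.72, 9.68 and 9.80 in TG-17 and 9.44, 9.39 and 9.57 in WT ventricles. All TG-17 mice lay above all WT mice, and the log2 difference of 0.27 (SE 0.069, 95% interval 0.099 to 0.43) was the largest upward one of the 10 genes, but the gene was not called (B of -2.09, limma adjusted p = 0.234). Hmox1 had values of 7.54, 7.68 and 7.51 in TG-17 and 7.52, 7.45 and 7.65 in WT, with the groups interleaved. Its log2 difference was 0.030 (SE 0.077, 95% interval -0.16 to 0.22, limma adjusted p = 0.871), and it changed sign without TG-17 replicate 2 or WT replicate 2. The difference between the 2 genes was not tested.

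Ireb2, an iron regulatory protein that binds mRNAs such as those of ferritin and Tfrc when iron is scarce, had log2 values of 9.79, 9.85 and 9.78 in TG-17 and 9.62, 9.72 and 9.70 in WT ventricles. The TG-17 mice lay above the WT mice by a small margin. The log2 difference was 0.13 (SE 0.054, 95% interval -0.0051 to 0.26, limma adjusted p = 0.336). Aco1, the other iron regulatory protein, had a log2 difference of -0.011 (SE 0.055).

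Beyond the 10 genes, 68 of 73 listed genes of heme and iron handling were measured, in 6 lists. At B above 0, none rose and none fell by limma, while 5 were higher and 5 lower at a nominal limma p under 0.05, or 14.7% of them against 15.4% of all named genes. Their median log2 difference was 0.0058.

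Of 11 genes of heme synthesis, 3 were lower and none higher at a nominal limma p under 0.05, a limit that 8.76% of all named genes passed as lower. In all, 7 of the 11 had a downward and 4 an upward log2 difference, with a median of -0.036. Cpox, which makes protoporphyrinogen, had log2 values of 8.90, 9.08 and 9.03 in TG-17 and 9.16, 9.31 and 9.32 in WT ventricles, a log2 difference of -0.26 (SE 0.076, limma adjusted p = 0.255). Ppox, the next enzyme, and Tmem14c, which carries its substrate into the mitochondrion in red cell precursors, had log2 differences of -0.14 each (SE 0.057 and 0.057). Fech, which inserts the iron, had one of -0.086 (SE 0.048). The fourth gene of the list by p was the porphyrin transporter gene Abcb6, at 0.13 (SE 0.070).

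Blvra, biliverdin reductase A, which acts on the product of the heme oxygenases, came closest to a call. Its log2 values were 9.12, 9.12 and 9.13 in TG-17 and 9.50, 9.47 and 9.35 in WT ventricles, with no overlap. The log2 difference was -0.32 (SE 0.058, B of -0.51, limma adjusted p = 0.221), and Blvra was called when only annotated probe sets were tested and with an intensity trend. The other reductase gene, Blvrb, had a log2 difference of -0.016 (SE 0.074). In the same list of 12 genes, the heme-binding protein genes Hebp1 and Pgrmc2 were higher at a nominal limma p under 0.05, at 0.20 (SE 0.058) and 0.18 (SE 0.059). The transporters Slc46a1 and Slc48a1 had log2 differences of -0.19 (SE 0.10) and 0.058 (SE 0.048).

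**Figure D3:**
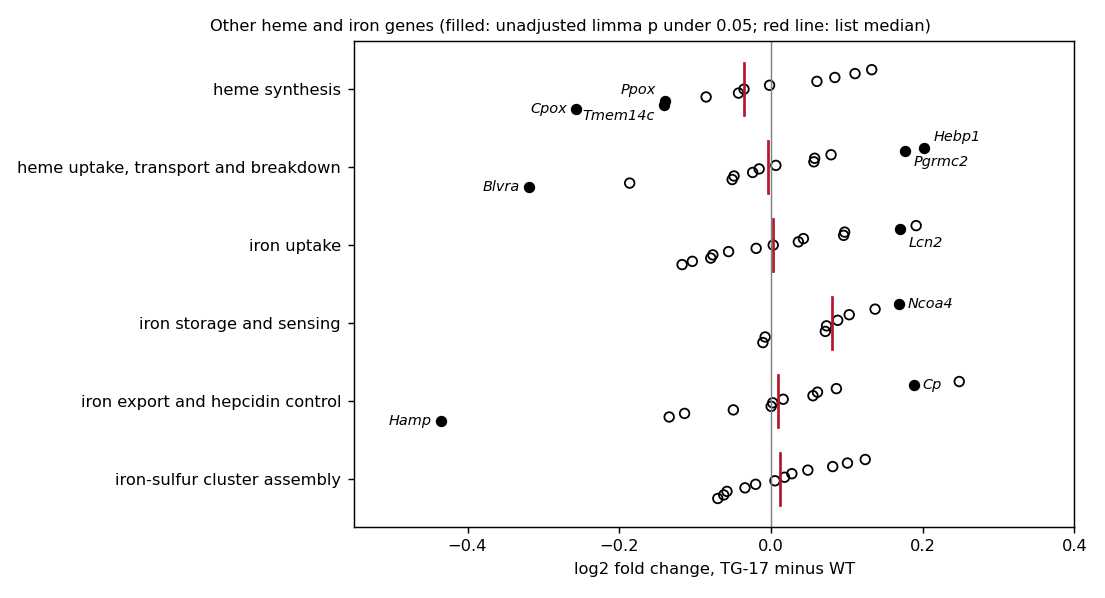
Log2 fold change (TG-17 minus WT) of 68 other heme and iron genes in 6 lists, 1 point per gene, with filled points at a nominal limma p under 0.05 and the red line at the list median. The filled points are 5 higher and 5 lower genes, Hamp at -0.44 being the lowest, and none of the 68 was called at B above 0. Hamp2, at 0.25, is the highest of the 68 and is not filled.

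Of 13 genes of iron uptake 1 was higher at a nominal limma p under 0.05, Lcn2, a siderophore-binding protein (0.17, SE 0.061), while Trf, transferrin itself, had a log2 difference of 0.043 (SE 0.059). Of 8 genes of storage and sensing 1 was higher, Ncoa4, which delivers ferritin for breakdown (0.17, SE 0.049, limma adjusted p = 0.252), and the median of the 8 was 0.081. The groups did not overlap for 4 of these 8 genes, against 5 of 11 of heme synthesis, 22 of all 68 and 25.8% of all named genes. The ferritin genes Fth1 and Ftl1 had log2 differences of -0.0077 (SE 0.046) and 0.10 (SE 0.056). Among 12 genes of export and hepcidin control, Cp, the ferroxidase ceruloplasmin, was higher (0.19, SE 0.057) and Hamp, the hormone hepcidin, was lower (-0.44, SE 0.17) at that p. Hamp was dim, at 4.45, 5.01 and 4.45 in TG-17 and 5.08, 5.19 and 4.94 in WT ventricles, with the same value in TG-17 replicates 1 and 3. All 6 values lay under the lower quartile of the arrays (5.51 to 5.57), and the groups overlapped. Hamp2, another hepcidin gene of that list, went the other way, with a log2 difference of 0.25 (SE 0.11) and overlapping groups. It was brighter than Hamp, at a mean log2 value of 7.36 against 4.85, and did not pass that p. None of 12 genes of iron-sulfur cluster assembly passed a nominal limma p of 0.05, and their log2 differences ran from -0.070 to 0.12.

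The neighbors of Flvcr2 on chromosome 12 were compared with it. Erg28, which encodes a protein of sterol synthesis, lies on the opposite strand, with its end 1.86 kb beyond the end of Flvcr2. Its log2 values were 8.01, 8.02 and 8.04 in TG-17 and 8.24, 8.31 and 8.33 in WT ventricles, with no overlap. The log2 difference of Erg28 was -0.27 (SE 0.051), and it was not called (B of -0.59, limma adjusted p = 0.221). Ttll5 lies next to Erg28 and had a log2 difference of 0.048 (SE 0.058). On the other side, the transcription factor genes Batf and Jdp2 had log2 differences of 0.050 (SE 0.074) and 0.14 (SE 0.097), with overlapping groups.

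**Figure D4:**
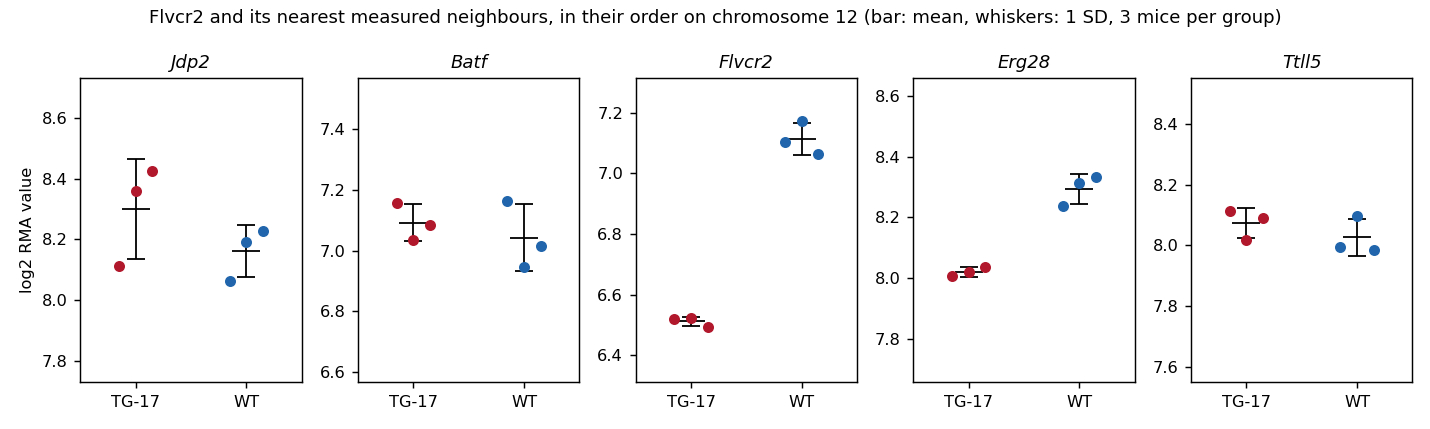
Log2 RMA values of Flvcr2 and its nearest 2 measured genes on either side, in their order along chromosome 12, in 3 TG-17 (red) and 3 WT (blue) mice. Points are single mice, with the mean as a bar and 1 SD as whiskers, and the groups are apart for Flvcr2 and Erg28 but overlap for Jdp2, Batf and Ttll5.

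The genes whose pattern was most like that of Flvcr2 were sought among 10845 named genes with a mean log2 value of 7 or more, by Pearson's r over the 6 mice. Flvcr2 itself, at a mean of 6.81, lay under that cut. The 5 highest were Tagln3, Sema6c, Slc22a5, Mppe1 and Dbt, with r of 0.997 to 0.994, and 3.25% of the genes had r above 0.9. The 6 points come from 2 groups that Flvcr2 separates, and r is given as a description. Slc22a5, the carnitine transporter, had a log2 difference of -0.20 (SE 0.046), and Dbt, a subunit of the branched-chain ketoacid dehydrogenase, of -0.50 (SE 0.048). Among the other 9 genes of heme and iron handling r with Flvcr2 ran from -0.94 for Hmox2 to 0.86 for Alas1.

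Markers of other cells in the ventricle were read beside these values. Of 10 endothelial markers 1 was higher and none lower at a nominal limma p under 0.05. The log2 of their summed linear signal was 13.84 to 13.87 in TG-17 and 13.83 to 13.87 in WT. The groups did not overlap for 6 of these 10 markers, against 25.8% of all named genes, with 6 upward and 4 downward log2 differences among the 10. Of 10 macrophage markers 1 was higher at that p, Lyz2 (0.27, SE 0.050). The log2 of their summed linear signal was 11.97 to 12.05 in TG-17 and 11.86 to 11.96 in WT, without overlap. Their mean log2 value overlapped (8.33 to 8.40 in TG-17 and 8.27 to 8.40 in WT). Of 10 erythroid markers 7 were measured, with 1 higher (Sptb) and 1 lower (Tspo2) at that p. Of the 7, 2 had an upward and 5 a downward log2 difference, with a median of -0.13. The log2 of their summed linear signal was 10.31 to 10.32 in TG-17 and 10.27 to 10.32 in WT, which overlapped although their mean log2 values did not. That sum is weighted toward Sptb, the brightest at a mean log2 value of 9.64, against 7.63 for Slc4a1, the next. Rhag and Kel lay under the lower quartile in every mouse. Epb42, with a log2 difference of -0.24 (SE 0.12), lay under it in every TG-17 mouse and in WT replicate 2. Of 6 pericyte markers 1 was higher at that p, Abcc9 (0.24, SE 0.050). Of the 6, 2 had an upward and 4 a downward log2 difference, with a median of -0.058. The log2 of their summed linear signal was 13.45 to 13.50 in TG-17 and 13.35 to 13.40 in WT, without overlap. That sum is weighted toward the brightest markers, Rgs5 (mean log2 value 12.08) and Abcc9 (11.86). The mean log2 value of the 6 overlapped (10.15 to 10.17 in TG-17 and 10.13 to 10.20 in WT). None of 8 fibroblast markers passed that p. Whether Abcc9 and Sptb mark only pericytes and red cells in whole ventricle was not tested. The part of macrophages, pericytes and red cells in the values of the heme and iron genes was not tested either.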

How the data were processed

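The authors hybridised ventricular RNA of each mouse to a Mouse Gene 1.0 ST Array and deposited log2 values made with RMA, as the submitters' processing notes name it. The sources used here give neither its version nor a filter. The 35556 probe sets and all 6 columns were used as deposited, with 0 columns left out. Groups came from the sample labels, and the line and age from the study. Probe sets were named through the platform annotation, and a RefSeq table of GRCm38.p6 supplied current symbols by Entrez number (21789 with 1 symbol, 1621 with several, 12146 unnamed).

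The comparison of the groups used limma 3.58.1 under R 4.3.3 (lmFit, then eBayes with no trend and a prior share of 0.01), and the script was tested on simulated data. The mice are separate animals, and their number limits the precision. The members and lists were chosen with earlier results of these data known. Named genes were the members, up to 4 genes of each list by smallest p, genes set by name, the neighbors of Flvcr2 and the 5 most similar genes. Rhag, Kel and Myh6 were named in addition, after their values were seen. Of the listed genes 13 had no probe set with 1 symbol, 5 of them lying in probe sets with several. The alternatives tried were dropping dim probe sets, annotated probe sets only, centring, a second quantile normalization, an intensity trend, the replicate block, averaging all probe sets of a gene and leaving out each mouse.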

Additional observations from a re-analysis of the deposited data

How the results depend on the processing

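Under all 13 alternatives 1 of the 10 genes was called, which was Flvcr2 each time, with a log2 difference of -0.63 to -0.55. Flvcr2 was chosen on these same arrays, so its calls and adjusted p describe it and do not test it. Its limma adjusted p was 0.099, against 0.020 with annotated probe sets only, 0.049 with an intensity trend and 0.058 to 0.40 in the other alternatives. The number of other heme and iron genes called was 0 except with annotated probe sets only and with an intensity trend, where it was 1 (Blvra). Over all probe sets 130 were called, against 287 with an intensity trend and 69 with the replicate block. With 1 mouse left out 29 to 112 were called, with 29 and 51 without TG-17 replicates 2 and 3 and 56 and 37 without WT replicates 1 and 2. Fewer mice enter these fits. Deviations of same-numbered mice correlated at -0.00044 to 0.057 and those of other pairs at -0.057 to 0.034. The replicate numbers thus gave no clear sign of pairing, but 3 mice per group cannot exclude it. The replicate block changed no call among the heme and iron genes.

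Genes that were never called changed sign in places. The log2 difference of Alas2 was 0.0090 after centring each array on its median and -0.21 to 0.071 with 1 mouse left out. That of Slc11a2 was -0.0096 after a second quantile normalization and -0.038 to 0.078 with 1 mouse left out, and that of Hmox1 was -0.021 to 0.085 with 1 mouse left out. The cause was not tested. The other 7 genes kept their direction in all 13 alternatives, but with 1 mouse left out Flvcr1 ran from -0.16 to -0.023, Tfrc from -0.21 to -0.091 and Slc40a1 from -0.12 to -0.042. Centring each array on its median gave -0.049 for Flvcr1, -0.11 for Tfrc, -0.022 for Slc40a1 and -0.13 for Alas1. It gave -0.55 for Flvcr2, 0.32 for Hmox2 and 0.18 for Ireb2. The nominal limma p of Alas1, 0.035, rose to 0.083 with centring. It was 0.097 to 0.10 without TG-17 replicate 2 or 3 or WT replicate 1 or 2, and under 0.05 in the other alternatives. That of Ireb2, 0.057, was 0.019 with centring, 0.021 with an intensity trend, 0.047 with annotated probe sets only and 0.0497 without dim probe sets. Its nominal limma p was 0.23 after a second quantile normalization and 0.057 to 0.17 in the other alternatives. Dim genes such as Hamp are limited by signal over background.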

Other observations

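A list around the factors Nrf2 and Bach1, which act on Hmox1, held 9 measured genes, of which 3 are the regulators Nfe2l2, Keap1 and Bach1 and 6 are target genes. At a nominal limma p under 0.05, which 15.4% of all named genes passed, 1 target was higher (Gclm), 1 target was lower (Txnrd1) and the regulator Bach1 was higher. None of the 9 was called at B above 0. Gclm, a subunit of the enzyme that starts glutathione synthesis, had a log2 difference of 0.17 (SE 0.049), and Bach1, the heme-binding repressor, of 0.22 (SE 0.089). Txnrd1, a thioredoxin reductase, had one of -0.22 (SE 0.070). Nfe2l2, which encodes Nrf2, had one of 0.21 (SE 0.093).

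Of the globins measured, Mb, the myoglobin of heart muscle and a large user of heme, had log2 values of 14.09, 14.09 and 14.06 in TG-17 and 14.15, 14.17 and 14.06 in WT ventricles. Its log2 difference was -0.043 (SE 0.053, limma adjusted p = 0.720). Cygb, Ngb and the embryonic globins Hba-x, Hbb-y and Hbb-bh1 had log2 differences of 0.035, -0.032, -0.0021, -0.075 and -0.058, and none of the 6 passed a nominal limma p of 0.05. The adult hemoglobin genes lie in probe sets with several symbols and were not used here.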
